A study of Homo sapiens with 8 samples.

Results

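The genes described are 9 genes of major histocompatibility complex (MHC) class I antigen presentation: HLA-B, HLA-C, HLA-E, HLA-F, B2M, TAP1, TAP2, PSMB8 and PSMB9. They were taken by symbol from a deposited table of read counts for 20294 genes. All 9 were found there, and all 9 were among the 13124 genes that passed the low-count filter. RNA came from HSC-5, an established line of human cutaneous squamous cell carcinoma. Cells of every group carried Cas9 introduced by a lentivirus. The 2 control libraries came from cells with an empty vector, and 3 libraries each came from cells given the guide RNA sgEZH2-1 or sgEZH2-2, both directed at EZH2, the histone H3 lysine 27 methyltransferase of Polycomb repressive complex PRC2. Cells that had taken up the guide were selected with G418. A further control was left out by the authors because it stood apart in clustering, and it was not analysed here. Whether the cells of a group were a pool or a clone, and whether its libraries came from separate cultures, is not given in the labels, so p-values measure only the spread between these libraries, which may be technical.

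MHC class I molecules carry short peptides from inside the cell to its surface, where CD8 T cells read them. The proteasome cuts proteins into peptides, the TAP1 and TAP2 transporter moves the peptides into the endoplasmic reticulum, and a polymorphic heavy chain folds around a peptide together with the light chain, beta-2 microglobulin, encoded by B2M. HLA-B and HLA-C are classical heavy chains, HLA-E is read by the NKG2 receptors of natural killer cells, and HLA-F is a non-classical heavy chain with restricted expression. PSMB8 and PSMB9 are catalytic subunits that replace PSMB5 and PSMB6 when the immunoproteasome is built. Interferon gamma raises most of these genes through IRF1 and the coactivator NLRC5, among others, and PRC2 has been described as a repressor of class I genes in some tumours.

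The libraries held 12.6 M to 15.5 M counts each. EZH2 itself was at 82.7 and 84.1 CPM (read counts scaled to the normalised size of the library) in the controls. It was at 56.4, 56.3 and 48.0 CPM with sgEZH2-1 and at 73.9, 67.6 and 65.1 CPM with sgEZH2-2. Every guide library lay below both controls, and EZH2 fell with sgEZH2-1 (log2 -0.64, adjusted p = 0.000529 by edgeR's quasi-likelihood test with Benjamini-Hochberg adjustment, which gave every adjusted p below unless another tool is named). With sgEZH2-2 its log2 fold change was -0.28 (adjusted p = 0.0699). The mRNA level is no direct measure of an edited gene's product. Keratinocyte markers were present, with a summed level of 2820 to 3420 CPM over all libraries. Leukocyte markers, from cells rich in class I, summed to 4.26 to 5.48 CPM in the control libraries, 8.68 to 10.4 CPM under sgEZH2-1 and 5.49 to 7.04 CPM under sgEZH2-2, with CD3D, CD3E, MS4A1 and TYROBP among those at 0 counts in every library and 2 of 10 markers tested. Endothelial markers summed to 177 to 184, 76.6 to 81.7 and 143 to 160 CPM in the same order, with KDR at 0, and fibroblast markers to 6.13 to 7.24, 5.02 to 8.96 and 11.0 to 14.1 CPM, with COL1A2 at 0. Melanocyte markers summed to 27.8 to 33.1 CPM in all libraries, with TYR, DCT and SOX10 at 0. The part of these sums in the results below was not tested.

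All 9 genes had higher mean levels with each guide than in the controls. With sgEZH2-1, 8 of the 9 rose at an adjusted p of at most 0.05 and 0 fell, PSMB8 being the one not called, where 11.3% of all tested genes rose and 9.51% fell. With sgEZH2-2, 5 of the 9 rose (HLA-B, HLA-C, HLA-E, HLA-F and PSMB9) and 0 fell, against 6.18% and 2.5% of all tested genes. With the 6 guide libraries pooled, 4 of the 9 rose (HLA-B, HLA-E, HLA-F and PSMB9) and 0 fell, against 3.76% and 0.594% of all tested genes. The median log2 fold change of the 9 genes was 0.32 with sgEZH2-1, 0.36 with sgEZH2-2 and 0.31 in the pooled comparison, and that of all tested genes was -0.0094, 0.00091 and -0.0043. The 3 comparisons share the same 2 controls. The 9 genes were chosen with earlier results of these data known. Their counts beside the shares of all genes, here and below, are therefore descriptions and no test of the set. At an unadjusted p below 0.05, 9 of the 9 passed with sgEZH2-1, 7 with sgEZH2-2 and 9 in the pooled comparison. The share of all tested genes at that looser threshold is not given here, so these counts cannot be set against a background. In bulk RNA, more expressing cells and more RNA per cell cannot be told apart.

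For all 9 genes, every sgEZH2-1 library lay above both controls, a pattern seen in 23.7% of all tested genes. Every sgEZH2-2 library lay above both controls for 8 of the 9 genes, against 19.3% of all tested genes, and all 6 guide libraries did so for the same 8, against 10.2%. TAP2 was the gene whose sgEZH2-2 libraries overlapped the controls.

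**Figure D1:**
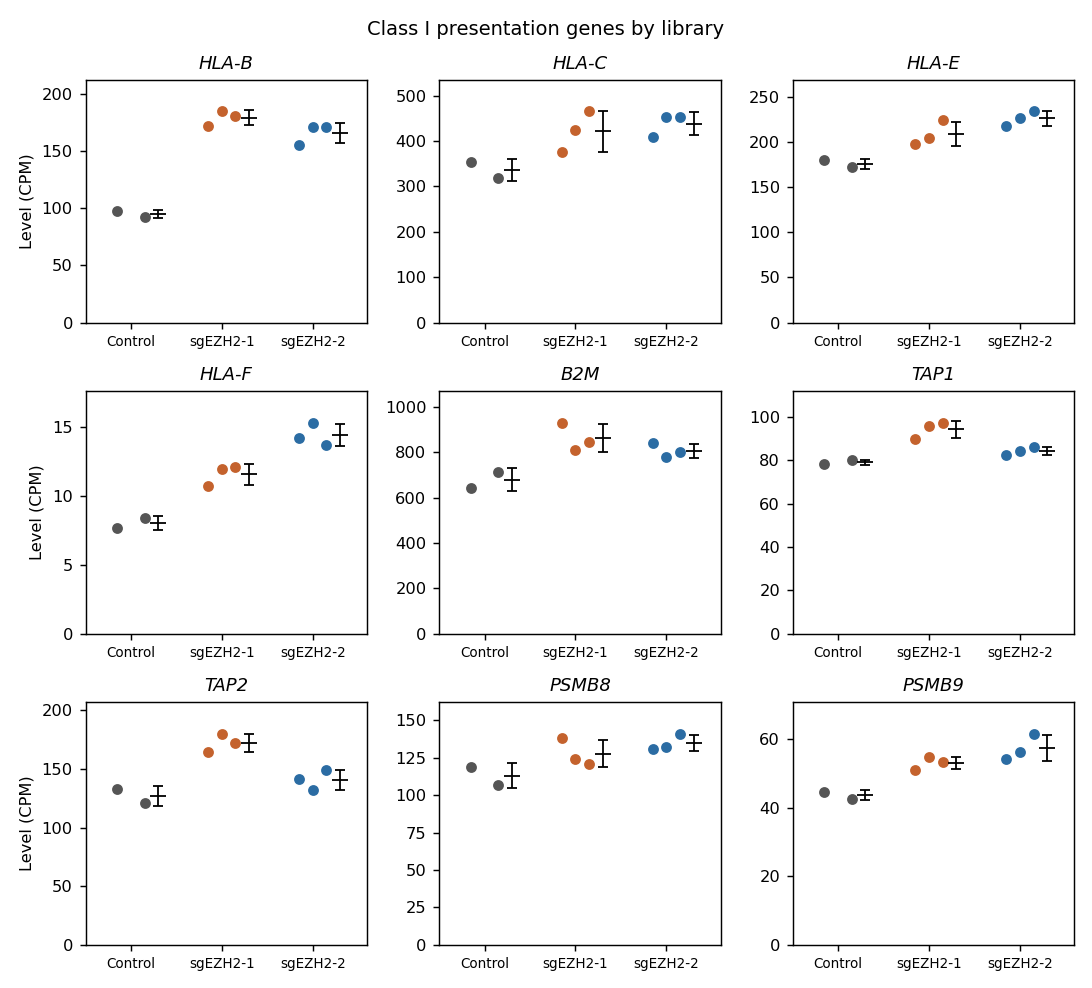
Level of each gene in CPM (vertical axis, from 0) in each of the 8 libraries, by group. Points are libraries, and the horizontal mark with its bar beside them is the group mean ± SD (n = 2, 3 and 3). HLA-B goes from 92.9 and 97.5 CPM in the controls to 156 CPM or more in every guide library, and in the TAP2 panel the sgEZH2-2 points overlap the controls.

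Among the heavy chains, HLA-B had the largest pooled change, and HLA-F with sgEZH2-2 one of similar size. HLA-B, on chromosome 6 at 31269491 to 31357188 on the minus strand (GRCh38, GENCODE release 29), was at 97.5 and 92.9 CPM in the controls. It was at 172, 185 and 181 CPM with sgEZH2-1 and at 156, 171 and 171 CPM with sgEZH2-2. The lowest guide library stood well above the higher control, and the sgEZH2-1 libraries lay just above those of sgEZH2-2. The fold change was 1.88 with sgEZH2-1 (log2 0.91, SE 0.063, adjusted p = 9.79e-06) and 1.74 with sgEZH2-2 (log2 0.80, SE 0.063, adjusted p = 4.6e-05). Pooled, HLA-B rose 1.81-fold (log2 0.86, SE 0.074, adjusted p = 0.000265). This call held in every alternative run, including each left-out library.

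HLA-C, with the highest counts of the 4 heavy chains described, lies on chromosome 6 at 31268749 to 31272130. It stood at 354 and 319 CPM in the controls, at 375, 424 and 465 CPM with sgEZH2-1 and at 409, 453 and 452 CPM with sgEZH2-2. All guide libraries were above both controls, the closest by a small margin. HLA-C rose by a log2 fold change of 0.32 with sgEZH2-1 (SE 0.088, adjusted p = 0.0262) and of 0.38 with sgEZH2-2 (SE 0.088, adjusted p = 0.0254). In the pooled comparison the value was 0.35 (adjusted p = 0.0549). The call with sgEZH2-1 was lost without control library 2 (adjusted p = 0.15) or sgEZH2-1 library 2 (0.0557), and that with sgEZH2-2 without control library 2 (0.16), sgEZH2-2 library 2 (0.0837) or sgEZH2-2 library 3 (0.0885), while the pooled value passed without sgEZH2-1 library 1 (0.018), by DESeq2 (0.00556) and as the mean of both guides in a fit of 3 groups (0.0168).

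HLA-E, on chromosome 6 at 30489467 to 30494205, was at 180 and 172 CPM in the controls. It was at 198, 205 and 224 CPM with sgEZH2-1 and at 218, 227 and 234 CPM with sgEZH2-2. No guide library fell within the control range. HLA-E rose by a log2 fold change of 0.25 with sgEZH2-1 (SE 0.064, adjusted p = 0.021), 0.36 with sgEZH2-2 (SE 0.064, adjusted p = 0.00608) and 0.31 pooled (SE 0.075, adjusted p = 0.0489). The pooled call lay at the threshold and was lost without control library 1 (adjusted p = 0.228), control library 2 (0.315), sgEZH2-1 library 3 (0.0764) or sgEZH2-2 libraries 1, 2 or 3 (0.0761, 0.0781 and 0.0782). The sgEZH2-1 call was lost without control library 1 (0.0515) or 2 (0.105), and the sgEZH2-2 call without control library 2 (0.0597).

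HLA-F, on chromosome 6 at 29722775 to 29738528, was the least abundant of the 9. It was at 7.67 and 8.41 CPM in the controls, at 10.7, 11.9 and 12.1 CPM with sgEZH2-1 and at 14.2, 15.3 and 13.7 CPM with sgEZH2-2. The 3 groups did not overlap, with sgEZH2-1 between the controls and sgEZH2-2. The rise was 1.44-fold with sgEZH2-1 (log2 0.53, SE 0.12, adjusted p = 0.00962), 1.79-fold with sgEZH2-2 (log2 0.84, SE 0.11, adjusted p = 0.00132) and 1.61-fold pooled (log2 0.69, SE 0.15, adjusted p = 0.0318). The pooled call was lost without control library 1 (adjusted p = 0.307) or 2 (0.17) and without sgEZH2-2 library 1 (0.0608) or 3 (0.0584), and the sgEZH2-1 call without control library 1 (0.0759).

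Heavy chain genes share sequence, and how reads of the cell line's own alleles matched the reference is not known, so their levels are uncertain. Of the 50-base windows of each gene's transcripts in GENCODE release 29, 2.72% of HLA-B, 5.38% of HLA-C, 4.34% of HLA-E and 0.977% of HLA-F also occurred in another gene. The annotated spans of HLA-B and HLA-C overlap by 2640 bases on the same strand.

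The reference sequence before the start of the genes was searched for the letters of known motifs. Whether any match is bound or active in HSC-5, and its part in the changes above, was not tested. RefSeq promoter windows (GRCh38.p14) were found for 8 of the 9 genes, all but HLA-E. The last 200 bases before the start site are shown for HLA-B, which had the largest pooled change, and for HLA-C and HLA-F, heavy chains with a smaller change or a lower level, followed by B2M and TAP1. The windows are chr6:31357180-31357379 for HLA-B and chr6:31272093-31272292 for HLA-C, both on the minus strand, chr6:29723234-29723433 for HLA-F and chr15:44711317-44711516 for B2M, both on the plus strand, and chr6:32853705-32853904 on the minus strand for the first of the TAP1 start sites. Capitals mark the matches to the motifs described after them, on either strand. These are the letters of the reference, not of HSC-5.
HLA-B: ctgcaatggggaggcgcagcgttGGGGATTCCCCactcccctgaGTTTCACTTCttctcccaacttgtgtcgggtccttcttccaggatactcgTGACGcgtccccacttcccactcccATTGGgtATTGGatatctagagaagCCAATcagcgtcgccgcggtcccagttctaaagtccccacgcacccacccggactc
HLA-C: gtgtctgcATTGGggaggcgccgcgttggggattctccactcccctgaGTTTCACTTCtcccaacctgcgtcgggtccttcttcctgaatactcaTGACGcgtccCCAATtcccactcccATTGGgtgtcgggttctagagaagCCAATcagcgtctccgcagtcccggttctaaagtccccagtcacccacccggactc
HLA-F: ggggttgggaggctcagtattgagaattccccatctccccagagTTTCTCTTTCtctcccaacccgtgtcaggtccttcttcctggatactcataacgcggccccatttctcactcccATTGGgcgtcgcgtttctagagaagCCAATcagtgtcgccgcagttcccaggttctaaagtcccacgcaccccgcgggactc
B2M: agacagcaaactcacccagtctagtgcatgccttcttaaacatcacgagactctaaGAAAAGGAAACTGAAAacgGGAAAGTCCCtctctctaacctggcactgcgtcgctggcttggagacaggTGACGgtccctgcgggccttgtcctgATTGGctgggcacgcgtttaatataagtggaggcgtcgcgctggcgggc
TAP1: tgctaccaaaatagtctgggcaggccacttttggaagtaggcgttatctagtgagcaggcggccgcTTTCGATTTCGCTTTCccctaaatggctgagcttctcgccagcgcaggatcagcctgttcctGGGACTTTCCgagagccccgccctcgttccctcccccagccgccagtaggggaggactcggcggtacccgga

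The motifs were searched on both strands over 250 bases before each start site, and only exact matches were counted. The 8 genes with a window had 10 start sites, and the shares given beside them are per promoter. The kappa B site in its enhancer A form, the 11-letter run in capitals at position -177 of HLA-B counted from the start site, was found in 1 of the 8 genes with a window, HLA-B, and in 0.0313% of 35116 promoters. HLA-C reads ggggattctcc at the like place, which an exact search does not count. The interferon-stimulated response element (ISRE) core, GAAA and GAAA with any 2 bases between them, was found in 4 genes, HLA-F, TAP1, TAP2 and B2M, and in 3.02% of promoters. It began at position -156 in HLA-F and at -58 in TAP2. A related form of the ISRE, chosen after the sequences had been seen, was found at -156 in HLA-B and -152 in HLA-C, where it reads GTTTCACTTC on the strand shown, and in 1.23% of promoters. The immunoglobulin form of the kappa B site was found in TAP1, at -72, and in B2M, at -125, and in 0.179% of promoters. The gamma-activated site TTCNNNGAA was found at the second start sites of TAP1 and PSMB8 and in 6.57% of promoters. CCAAT was found in 6 of the 8 genes and in 32% of promoters, and TGACG, the core of the cyclic AMP response element, in 6 of the 8 and in 21.2%. In TAP1 and B2M the ISRE core occurs as overlapping copies that are marked as a single run.

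The light chain gene B2M lies outside the MHC, on chromosome 15 at 44711487 to 44718877. It was at 643 and 714 CPM in the controls, at 931, 812 and 846 CPM with sgEZH2-1 and at 840, 778 and 802 CPM with sgEZH2-2. All 6 guide libraries lay above both controls, and the 2 guides overlapped. B2M rose with sgEZH2-1 (log2 0.35, SE 0.069, adjusted p = 0.00577). With sgEZH2-2 the value was 0.25 (SE 0.069, adjusted p = 0.0504), and pooled it was 0.30 (SE 0.077, adjusted p = 0.0608, but 0.00591 by DESeq2 and 0.0108 as the mean of both guides). The call with sgEZH2-1 was lost without control library 1 (adjusted p = 0.0734), while the value with sgEZH2-2 lay at the threshold. It passed under 7 of 14 alternatives, among them DESeq2 (0.0166), the fit of the 2 groups alone (0.0292) and the fit without sgEZH2-1 library 1 (0.0193), which enters through the shared estimate of the spread.

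Of the peptide transporter, TAP1 (chromosome 6, 32845209 to 32853978) was at 78.3 and 79.9 CPM in the controls, at 89.9, 95.7 and 97.4 CPM with sgEZH2-1 and at 82.6, 84.2 and 86.1 CPM with sgEZH2-2. The groups did not overlap, with sgEZH2-2 between the controls and sgEZH2-1. TAP1 rose with sgEZH2-1 (log2 0.25, SE 0.059, adjusted p = 0.0128). With sgEZH2-2 the value was 0.092 (95% interval -0.039 to 0.22, adjusted p = 0.404) and pooled 0.18 (adjusted p = 0.305). TAP2 (chromosome 6, 32821833 to 32838780), its partner in the heterodimer, was at 133 and 121 CPM in the controls, at 164, 180 and 172 CPM with sgEZH2-1 and at 141, 132 and 149 CPM with sgEZH2-2. The sgEZH2-1 libraries stood apart from all others. TAP2 rose 1.36-fold with sgEZH2-1 (log2 0.44, SE 0.071, adjusted p = 0.00174), and its values were 0.15 with sgEZH2-2 (95% interval -0.003 to 0.31, adjusted p = 0.231) and 0.31 pooled (adjusted p = 0.222, but 0.0127 as the mean of both guides in the fit of 3 groups). The call of TAP1 was lost without control library 1 (adjusted p = 0.0725). TAP2 is uncertain, since its span overlaps that of AL669918.1 on the same strand and 31.3% of its 50-base windows occur there; AL669918.1 itself rose with sgEZH2-1 (log2 0.83, adjusted p = 0.0388).

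The immunoproteasome subunits PSMB8 (chromosome 6, 32840717 to 32844703) and PSMB9 (32844136 to 32859585) lie between and beside the TAP genes. PSMB8 was at 119 and 107 CPM in the controls, at 138, 124 and 121 CPM with sgEZH2-1 and at 131, 132 and 141 CPM with sgEZH2-2. Every guide library was above both controls, some by little. PSMB8 was not called, with log2 fold changes of 0.18 (95% interval 0.0098 to 0.34, adjusted p = 0.125), 0.25 (0.085 to 0.42, adjusted p = 0.0683) and 0.21 pooled (0.045 to 0.38, adjusted p = 0.184), though with sgEZH2-2 it passed by DESeq2 (adjusted p = 0.042) and without sgEZH2-1 library 1 (0.0337). PSMB9 was at 44.7 and 42.6 CPM in the controls, at 51.0, 54.7 and 53.4 CPM with sgEZH2-1 and at 54.3, 56.2 and 61.6 CPM with sgEZH2-2. The controls were the lowest libraries by a clear gap. PSMB9 rose with sgEZH2-1 (log2 0.28, SE 0.075, adjusted p = 0.0235), with sgEZH2-2 (log2 0.39, SE 0.075, adjusted p = 0.00935) and pooled (log2 0.34, SE 0.082, adjusted p = 0.0479). The pooled call of PSMB9 was lost without control library 1 (adjusted p = 0.229) or 2 (0.297), sgEZH2-1 library 2 (0.0756) or 3 (0.0598), or sgEZH2-2 library 1 (0.0747), 2 (0.0781) or 3 (0.0639), its sgEZH2-1 call without control library 1 (0.065) or 2 (0.106) or sgEZH2-1 library 2 (0.0705), and its sgEZH2-2 call without control library 2 (0.0732). The strand setting of the counting is not given, and PSMB9 overlaps TAP1 by 8770 bases and PSMB8 by 568 bases on the opposite strand, so reads of these genes may be shared between them.

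**Figure D2:**
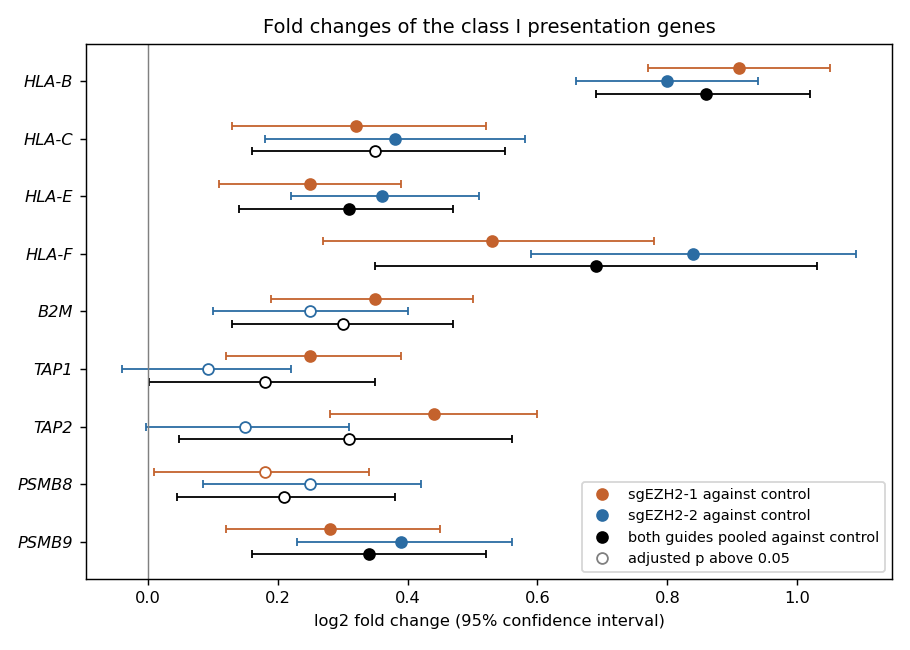
The log2 fold change against control (horizontal axis) of each gene with sgEZH2-1, with sgEZH2-2 and with both guides pooled; bars are 95% confidence intervals and open symbols mark an adjusted p above 0.05. All values lie above 0, HLA-B with sgEZH2-1 is highest at 0.91, and TAP1 with sgEZH2-2 is lowest at 0.092.

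The direct comparison of the guides gave a difference for 2 of the 9 genes. TAP2 was higher with sgEZH2-1 (log2 difference 0.29, SE 0.063, adjusted p = 0.00981) and HLA-F was lower with sgEZH2-1 (log2 difference -0.31, SE 0.10, adjusted p = 0.0442). Of all tested genes, 10.4% were higher and 11.5% lower with sgEZH2-1 than with sgEZH2-2, so 1 of 9 in each direction is close to the background. EZH2 mRNA was lower with sgEZH2-1 than with sgEZH2-2 (log2 -0.36, adjusted p = 0.00844), and the part of this in the 2 differences was not tested. For HLA-B the difference was 0.11 (95% interval -0.0097 to 0.23, adjusted p = 0.168), and for HLA-C it was -0.055 (-0.23 to 0.12, adjusted p = 0.642). It was -0.12 for HLA-E (-0.24 to 0.0087, adjusted p = 0.163) and 0.10 for B2M (-0.039 to 0.23, adjusted p = 0.276). The difference was 0.16 for TAP1 (0.045 to 0.28, adjusted p = 0.0508), -0.075 for PSMB8 (-0.22 to 0.073, adjusted p = 0.445) and -0.11 for PSMB9 (-0.26 to 0.033, adjusted p = 0.242). These intervals leave room for differences between the guides of the size seen for TAP1. Without any 1 of the 6 guide libraries the HLA-F difference did not pass, with an adjusted p of 0.112, 0.0956 and 0.0619 without sgEZH2-1 libraries 1, 2 and 3 and of 0.0728, 0.16 and 0.079 without sgEZH2-2 libraries 1, 2 and 3. That of TAP1 passed without sgEZH2-1 library 1 (adjusted p = 0.0339), by limma-voom (0.0482) and at a minimum count of 30 (0.0474). Without sgEZH2-1 library 1 the HLA-C log2 difference turned in sign to 0.022 and was not called (adjusted p = 0.851).

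Ratios between genes whose products act together were compared within each library. The ratio of HLA-B to B2M counts was 0.152 and 0.13 in the controls, 0.184, 0.228 and 0.214 with sgEZH2-1 and 0.186, 0.22 and 0.213 with sgEZH2-2. The ratio of HLA-B to HLA-C was 0.275 and 0.292 in the controls, 0.389 to 0.457 with sgEZH2-1 and 0.378 to 0.381 with sgEZH2-2. In both, every guide library lay above both controls, so HLA-B counts were higher relative to those of its light chain and of HLA-C. The ratio of HLA-C to B2M (0.499 ± 0.0743, 0.492 ± 0.0778 and 0.544 ± 0.05 in controls, sgEZH2-1 and sgEZH2-2) and that of HLA-E to B2M (0.26 ± 0.0285, 0.243 ± 0.0272 and 0.281 ± 0.0188) overlapped between the groups. PSMB8 over PSMB5, the subunit it replaces, was 0.624 ± 0.0206 in the control libraries, 0.703 ± 0.0507 with sgEZH2-1 and 0.834 ± 0.0253 with sgEZH2-2. PSMB9 over PSMB6 was 0.196 ± 0.00665, 0.238 ± 0.0153 and 0.286 ± 0.0183. All guide libraries lay above both controls in these 2 ratios as well, which set an inducible subunit against its constitutive counterpart. With 2 controls against 6 guide libraries the exact two-sided permutation test cannot go below p = 0.0714, which these 4 of the 9 ratios reached (adjusted p = 0.161 over the 9). For HLA-F over B2M, TAP1 over TAP2 and TAP1 over PSMB9 the 6 guide libraries overlapped the controls. Their log2 differences were 0.38, -0.13 and -0.16 (exact permutation p = 0.214, 0.143 and 0.214, adjusted p = 0.276, 0.257 and 0.276). By guide, HLA-F over B2M was 0.0168 to 0.0197 with sgEZH2-2, above the controls (0.0119 and 0.0118). TAP1 over PSMB9 was 1.4 to 1.52 with sgEZH2-2, below the controls (1.75 and 1.88). TAP1 over TAP2 was 0.53 to 0.566 with sgEZH2-1, below the controls (0.59 and 0.663). In each of these ratios the other guide overlapped the controls.

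**Figure D3:**
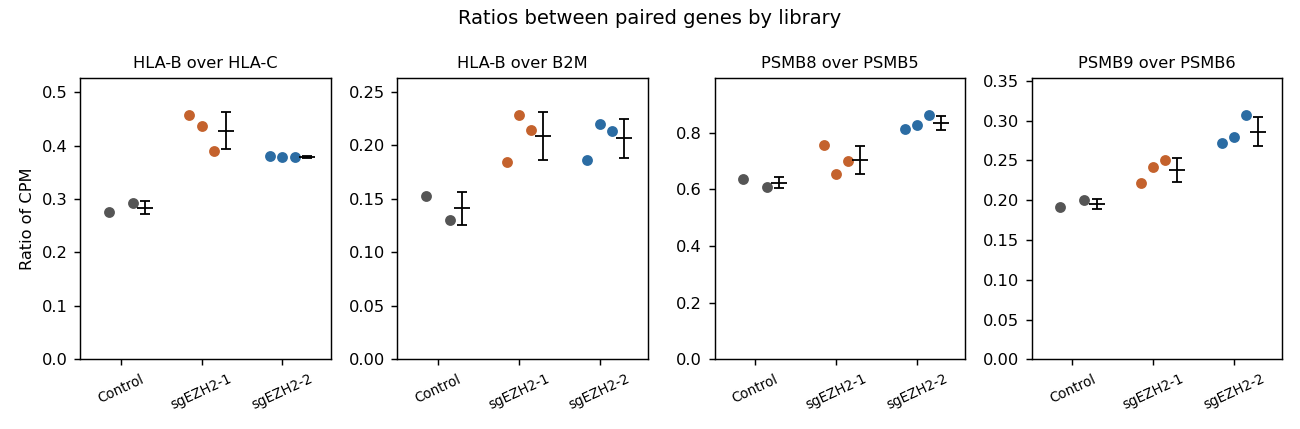
Ratio of CPM of 4 gene pairs (vertical axis, from 0) in each library, by group; the mark and bar are the mean ± SD (n = 2, 3 and 3). In each panel all 6 guide libraries lie above both controls, as for HLA-B over HLA-C, at 0.275 and 0.292 in the controls and at 0.378 or more with the guides.

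Levels of different genes were compared as CPM per kilobase of annotated exon. In the controls the order was HLA-C (134 ± 10.1 CPM per kilobase), B2M (112 ± 8.28), HLA-E (59.2 ± 2.1), PSMB8 (37.7 ± 3.0), HLA-B (31.2 ± 1.06), TAP2 (19.8 ± 1.33), TAP1 (16.5 ± 0.247), PSMB9 (14.2 ± 0.498) and HLA-F (1.85 ± 0.121; SD, n = 2). No 2 neighbours in this order overlapped in their control values. HLA-B stood at 58.7 ± 2.29 with sgEZH2-1 and 54.4 ± 2.79 with sgEZH2-2 (n = 3 each), above PSMB8 (42.7 ± 3.08 and 44.9 ± 1.83). The order depended on the length used. Per kilobase of the longest transcript, B2M was first in the controls (282 ± 20.9) and HLA-C second (179 ± 13.5), and HLA-B (61.5 ± 2.1) was above PSMB8 (47.7 ± 3.79). On that scale HLA-B passed HLA-E with the guides, at 116 ± 4.53 against 80.3 ± 5.21 with sgEZH2-1 and 107 ± 5.51 against 87.1 ± 3.16 with sgEZH2-2.

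Across the 8 libraries the log2 levels of the 9 genes were positively correlated in every pair, with Pearson's r from 0.24 to 0.96 over 36 pairs (median 0.69). The highest was between HLA-C and HLA-E. These correlations share the difference between guides and controls, as well as library and depth, and are descriptions. As deviations from the group means, 14 of the 36 correlations were negative. B2M was negative with 7 of the other 8 genes there, from -0.88 to 0.13.

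The genes whose log2 levels followed HLA-B most closely over the 8 libraries, of 9564 genes with a mean of at least 10 CPM, were PODXL (r = 0.995), ATP11A (0.992), NEO1 (0.991), GRB10 (0.989) and GNAO1 (0.989). PODXL, which encodes the sialomucin podocalyxin, had a pooled log2 fold change of 0.95, near that of HLA-B, and NEO1, which encodes the receptor neogenin, one of 4.35. HLA-E was followed by ULBP2 (0.981), a ligand of the NKG2D receptor, and by DAP (0.971), TSPAN33 (0.970), SEMA6B (0.969) and OAF (0.968). The pooled log2 fold change of ULBP2 was 0.29 and that of HLA-E 0.31. TAP1 was followed by PMEPA1 (0.990), RHPN2 (0.989), MYLK (0.986), MYEOV (0.977) and ATP2C2 (0.976). PMEPA1 had log2 fold changes of 1.34 with sgEZH2-1 and 0.53 with sgEZH2-2, larger with the same guide as TAP1. These 8 libraries form 3 groups, so the correlations share the differences between groups, and they are descriptions.

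The other genes of the pathway were counted in the same way. Of 76 other tested genes in lists of heavy chains, peptide loading, trimming, proteasome, transcription factors, interferon gamma signalling and turnover, 0 rose and 0 fell in the pooled comparison (3.76% and 0.594% of all tested genes) by edgeR's quasi-likelihood test. At an unadjusted p below 0.05 there were 4, and the share of all tested genes at that threshold is not given here. By DESeq2 1 was higher and 1 lower, where 655 of all tested genes were higher and 160 lower. By limma-voom 0 were called, where 396 were higher and 63 lower. The median log2 fold change of the 76 genes was -0.015. With sgEZH2-1, 6 rose and 4 fell (median 0.0012), against 11.3% and 9.51% of all tested genes, and with sgEZH2-2, 2 rose and 1 fell (median -0.027), against 6.18% and 2.5%. Between the guides, 13 were higher and 6 lower with sgEZH2-1, against 10.4% and 11.5%.

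In the peptide loading list, CALR, the chaperone calreticulin, fell with sgEZH2-1 from 1050 ± 16.7 CPM (SD, n = 2) to 901 ± 31.7 (n = 3, log2 -0.22, adjusted p = 0.00689). With the same guide PDIA3, the oxidoreductase ERp57, changed by -0.21 on the log2 scale (adjusted p = 0.0205) and HSPA5, the chaperone BiP, by -0.20 (adjusted p = 0.0217). The values of CALR, PDIA3 and HSPA5 with sgEZH2-2 were 0.04, -0.029 and -0.056 (adjusted p = 0.665, 0.804 and 0.576). With sgEZH2-2, TAPBPL, the tapasin-related peptide editor, rose from 11.4 ± 1.02 to 16.0 ± 1.09 CPM (log2 0.49, adjusted p = 0.0376). CALR, PDIA3, TAPBP and TAPBPL were lower with sgEZH2-1 than with sgEZH2-2, at log2 differences of -0.26, -0.18, -0.24 and -0.43 (adjusted p = 0.00186, 0.024, 0.0123 and 0.0208). TAPBP encodes tapasin, which bridges TAP and the heavy chain. Of the 8 loading genes other than TAP1 and TAP2, 0 rose and 3 fell with sgEZH2-1, and 1 rose and 0 fell with sgEZH2-2, where 9.51% of all tested genes fell with sgEZH2-1 and 6.18% rose with sgEZH2-2. Of the 9 trimming peptidases, among them ERAP1 and ERAP2, 0 were called by edgeR in any comparison.

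In the proteasome, the assembly factor POMP rose with sgEZH2-1 from 99.2 ± 6.76 to 120.0 ± 5.73 CPM (log2 0.28, adjusted p = 0.0167). With sgEZH2-2 the value of POMP was 0.073 (adjusted p = 0.579), and the difference between the guides was 0.20 (adjusted p = 0.0371). PSMB10, the third inducible catalytic subunit, was not called with either guide (log2 0.18, adjusted p = 0.544, and 0.55, adjusted p = 0.112). Of the 3 constitutive catalytic subunits, PSMB7 fell with sgEZH2-2 (log2 -0.21, adjusted p = 0.0268). The values of PSMB5 and PSMB6 with sgEZH2-2 were -0.17 (adjusted p = 0.0994) and -0.16 (adjusted p = 0.131), and with sgEZH2-1 0.0064 and -0.0034. Of the other 11 core subunits, 0 were called against the controls by edgeR, and 5 (PSMA1, PSMA3, PSMA5, PSMA7 and PSMB2) were higher with sgEZH2-1 than with sgEZH2-2, as were 10.4% of all tested genes.

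Among the regulators, IRF1 rose with sgEZH2-1 from 54.4 ± 6.36 to 67.9 ± 2.2 CPM (log2 0.32, adjusted p = 0.0283). With sgEZH2-2 its value was 0.11 (adjusted p = 0.508), and the difference between the guides was 0.21 (adjusted p = 0.0849). NLRC5, the class I transactivator, averaged 20.3 ± 0.459 CPM without a guide, 25 ± 2.74 with sgEZH2-1 and 23.2 ± 1.79 with sgEZH2-2, and was not called (log2 0.30, adjusted p = 0.0731, and 0.19, adjusted p = 0.331). The values of STAT2 were negative and not called (log2 -0.22, adjusted p = 0.0796, and -0.23, adjusted p = 0.113). Those of NFKB1 were also negative and not called (log2 -0.07, adjusted p = 0.417, and -0.15, adjusted p = 0.143). CIITA, the class II transactivator, rose with sgEZH2-2 from 17.5 ± 0.0495 to 23.7 ± 2.27 CPM (log2 0.44, adjusted p = 0.0212) and was lower with sgEZH2-1 than with sgEZH2-2 (log2 -0.73, adjusted p = 0.00042). In the turnover list, MAL2 rose with sgEZH2-1 (log2 0.55, adjusted p = 0.00922), as did SEC61G and SEL1L. With sgEZH2-2 the values of MAL2, SEC61G and SEL1L were -0.076, -0.025 and -0.016 (adjusted p = 0.765, 0.896 and 0.923). Their differences between the guides were 0.63, 0.32 and 0.24 (adjusted p = 0.00279, 0.0104 and 0.0202). SYVN1, the ubiquitin ligase HRD1, fell with sgEZH2-1 (log2 -0.34, adjusted p = 0.0117), and its value with sgEZH2-2 was -0.26 (adjusted p = 0.0641). AZGP1, a class I-like secreted protein, had 0 counts in the controls, 42 over the sgEZH2-1 libraries and 9 over the sgEZH2-2 libraries. Its mean levels with the guides were low, at 1.0 and 0.215 CPM. Taking 3 counts over both controls as the floor (0.102 CPM), these means were at least 9.84-fold and 2.11-fold higher. With sgEZH2-2 AZGP1 was not called (adjusted p = 0.0843), and its lowest library there, at 0.0787 CPM, lay below that floor.

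**Figure D4:**
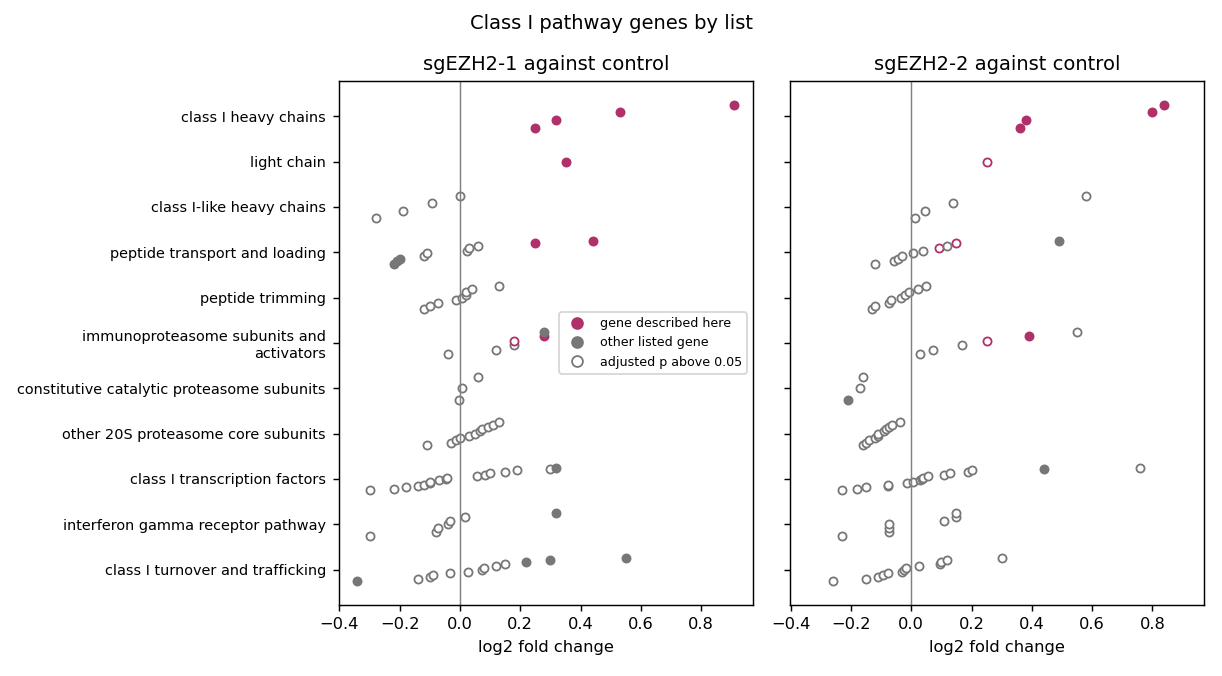
The log2 fold change (horizontal axis) of the genes counted in each pathway list with sgEZH2-1 (left) and sgEZH2-2 (right); each point is a gene, open symbols mark an adjusted p above 0.05, IRF1 stands in 2 lists, and AZGP1, at 0 in the controls, is left out. The 9 genes described lie at or above 0.092, while other lists reach below 0 with at least 1 guide, down to -0.34 for SYVN1 with sgEZH2-1.

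The neighbours of the 9 genes on the chromosome were counted next. Of the 30 distinct genes that were the 3 nearest tested on each side, 1 rose and 0 fell in the pooled comparison (3.76% and 0.594% of all tested genes), with a median log2 fold change of 0.048. The 1 was GABBR1, a GABA receptor subunit 88799 bases from HLA-F (log2 0.67, adjusted p = 0.0267), which rose with both guides (0.68 and 0.66). With sgEZH2-1, 4 rose and 2 fell, against 11.3% and 9.51% of all tested genes. With sgEZH2-2, 4 rose and 0 fell, against 6.18% and 2.5%. The latter 4 included the class II genes HLA-DMB (log2 1.74, adjusted p = 0.00179) and HLA-DQB1 (log2 2.78, adjusted p = 0.0203), whose products belong to the presentation of extracellular peptides. MICB, a stress ligand of NKG2D 137693 bases from HLA-B, rose with sgEZH2-1 (log2 0.24, adjusted p = 0.0253). TAP1 and PSMB9 are transcribed away from each other, with 487 bases between their RefSeq start sites, and both rose with sgEZH2-1.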

How the data were processed

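The authors deposited a table of whole-number read counts per gene with no normalization, and FastQC, STAR, DESeq and build hg38 are named per the submitters' processing notes. Per the labels' protocols, libraries were made with a stranded mRNA kit. The counting tool, its options, the annotation and all versions were not given in the sources used here. Columns name a group and no replicate number, so libraries are numbered by column order, and 0 columns were left unused. Levels are CPM on totals scaled by TMM. Genes were filtered with filterByExpr (minimum count 10). The test was edgeR 4.0.16's two-sided quasi-likelihood F test in R 4.3.3, adjusted over 13124 genes at a threshold of 0.05. The pooled comparison used 2 levels, and each guide was a contrast in a fit of 3 groups. DESeq2 1.42.0, limma-voom (limma 3.58.1), other scaling, filters, fits and left-out libraries were alternatives. The procedure was tested on simulated data in which both guides had the same changes. Differences between the guides, which these data hold, were not simulated. Replicate libraries differed by more than sampling noise. All 9 members were named, and per pathway list a selection of the others, along with neighbours and genes of like pattern. Not every listed gene that differed between the guides was named. HFE and SEC61A1, not named above, had log2 differences of -0.24 and 0.14 with sgEZH2-1 against sgEZH2-2 (adjusted p = 0.0154 and 0.0398 by edgeR's quasi-likelihood test). The members and lists were chosen with earlier results of these data known. A few listed genes are not reported here and were left out of the counts over the other pathway genes.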

Additional observations from a re-analysis of the deposited data

Results flagged for a closer look

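HLA-F and TAP2 differed between the guides when sgEZH2-1 was tested directly against sgEZH2-2 with edgeR's quasi-likelihood test. The log2 difference was -0.31 for HLA-F (adjusted p = 0.0442) and 0.29 for TAP2 (adjusted p = 0.00981). Of all tested genes, 11.5% were lower and 10.4% higher with sgEZH2-1, so 1 of 9 in each direction is close to the background. The HLA-F difference did not pass by DESeq2 (adjusted p = 0.138) or with any single guide library left out.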

How the results depend on the processing

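No paired analysis was possible because the columns of the count table carry no replicate numbers. Over all alternatives, HLA-B kept its call in the pooled comparison and with each guide, HLA-F with sgEZH2-2, and TAP2 with sgEZH2-1 and between the guides. The pooled calls of HLA-E and PSMB9 were also lost with limma-voom (adjusted p = 0.0549 and 0.0531) and with no low-count filter (0.0611 and 0.0617), and that of HLA-E at a minimum count of 30 (0.0506). In the pooled comparison, 2 of the 9 genes rose with limma-voom, where 396 of all tested genes rose and 63 fell. With no low-count filter 2 of the 9 rose, where 491 genes rose and 64 fell. DESeq2 gave 6 of the 9 higher, with 655 genes higher and 160 lower. As the mean of both guides in the fit of 3 groups, 7 of the 9 rose, where 1010 genes rose and 602 fell. With 1 library left out at a time, 1 to 5 of the 9 rose, and 135 to 460 genes were higher and 8 to 52 lower. With sgEZH2-1, a fit of the 2 groups alone gave 766 genes lower, and left-out libraries gave 844 to 1492 genes higher, 529 to 1145 lower and 3 to 8 of the 9 higher. With sgEZH2-2, the fit of the 2 groups alone gave 218 genes lower, and left-out libraries gave 439 to 957 higher, 82 to 408 lower and 2 to 7 of the 9 higher. Between the guides, 0 of the 9 were lower with DESeq2 (1311 of all genes tested) and 0 with no low-count filter (1468). With limma-voom 2 of the 9 were higher (1358 of all genes tested), as were 2 at a minimum count of 30 (1343). Left-out libraries gave there 692 to 1469 genes higher, 829 to 1536 lower, 1 to 2 of the 9 higher and 0 to 1 lower. The HLA-C difference between the guides, not called, reversed to 0.022 without sgEZH2-1 library 1 and ran from -0.13 to 0.022. The cause of these changes was not tested. A control group of 2 libraries limits all comparisons with it.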
